A study of Mus musculus with 6 samples.

Results

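A group of genes of retinoid and alcohol metabolism were examined in primary mouse hepatocytes treated with interleukin-1β (IL-1β), an inflammatory cytokine. The 9 genes, Aldh1a1, Aldh1a2, Aldh1a3, Aldh1a7, Adh1, Adh4, Rdh10, Dhrs3 and Cyp26a1, were taken by symbol from the 23282 genes of the deposited table, and all 9 were found. They were chosen by their role in the pathway with their counts in the IL-1β and control samples already known, so the difference between these groups is only described for them, with no p-value. Where a member is said to be past the threshold, this places it in the fit across all genes and is support for nothing. The hepatocytes came from livers of C57BL6/N mice, perfused with collagenase, and were plated before treatment. The control group (n = 3) received no cytokine and the IL-1β group (n = 3) received the recombinant protein for 24 h. The age and sex of the mice, and the cytokine dose used for the sequenced cultures, are not given in the sources used here. The sources do not say whether samples of a group came from separate animals or cultures, so p-values measure the spread between these samples, which may be technical. RNA was measured by 3′ end sequencing (QuantSeq), which reads 1 end of each transcript, so counts can be compared between genes without dividing by length.

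Vitamin A alcohol (retinol) is first oxidised to retinal and then, irreversibly, to retinoic acid, which switches on genes through nuclear receptors. Hepatocytes take up dietary retinoid, release retinol to the blood on its carrier protein, and break down retinoic acid. Several enzymes of the pathway belong to families that also oxidise ethanol and acetaldehyde, a main task of the liver.

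Total counts ranged from 9538741 to 11105408 per sample, and 3 counts, taken as the lower limit of detection, correspond to 0.269 to 0.321 CPM (counts scaled to normalised library totals). Of all genes, 11657 had enough counts to be tested, and 1563 of them (13.4%) passed an adjusted p of 0.05 in edgeR's quasi-likelihood test, 812 higher (6.97%) and 751 lower (6.44%) with IL-1β. With total counts as the only scaling the split was 662 higher and 1008 lower. The 2 groups of 3 samples did not overlap in 3282 genes (28.2%). Of the 9 enzymes, 7 could be tested, and 6 of them were past the threshold, 4 lower and 2 higher. The same 6 had groups that did not overlap. These counts follow from how the genes were chosen and nothing is read from them against the shares of all genes. The median log2 fold change (IL-1β over control) of the 7 was -1.83, against -0.0018 over all genes tested.

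Together the 9 genes took 0.0341 to 0.0381% of the counts in control samples and 0.0146 to 0.0163% with IL-1β. Their summed level was 333 to 377 CPM in control samples and 149 to 167 CPM with IL-1β. In control samples most of that sum came from Adh1 and Aldh1a1. In bulk RNA, fewer cells of a type and less RNA per cell cannot be told apart.

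**Figure D1:**
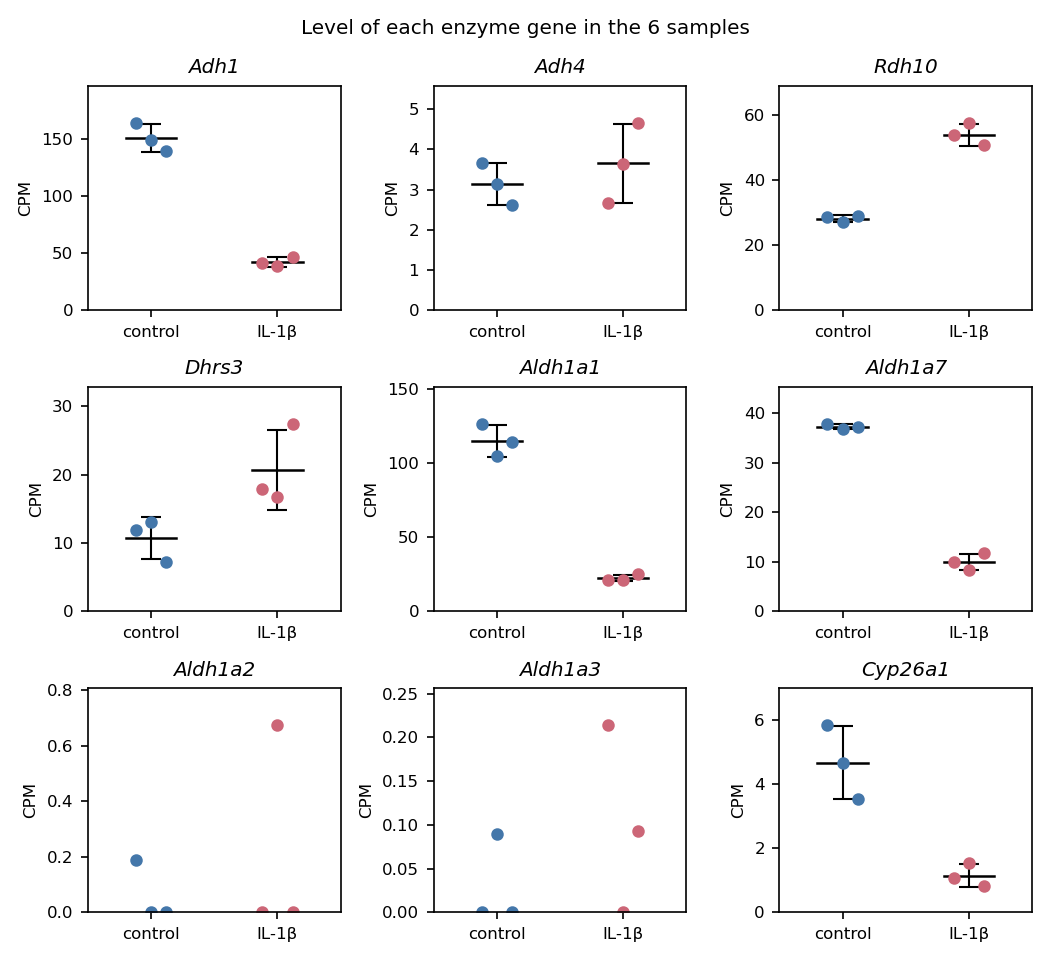
Level of each of the 9 enzyme genes in each sample, in CPM, with 1 panel per gene and a separate linear axis from 0 in each. Points are the 3 control and 3 IL-1β samples, and horizontal bars with whiskers are the mean and SD for the 7 genes tested; Adh1, Aldh1a1, Aldh1a7 and Cyp26a1 sit lower with IL-1β in every sample, Rdh10 and Dhrs3 higher, and the groups of Adh4 overlap.

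The alcohol dehydrogenases oxidise ethanol, and also retinol, to the aldehyde. Adh1, the class I enzyme that carries most ethanol oxidation in liver, lies on chromosome 3 (138277645 to 138290691, plus strand, GRCm38). Its level was 163, 149 and 140 CPM in the control samples and 41.5, 38.9 and 46.9 CPM with IL-1β. All IL-1β samples lay far below all control samples. The mean was 150.6 ± 12.0 CPM in control samples and 42.4 ± 4.11 CPM with IL-1β (SD, n = 3 each), 3.55-fold lower, with a log2 fold change of -1.83 ± 0.090 (SE). Adh4, the class II enzyme, lies on the same chromosome (138415497 to 138430892, plus strand), 124806 bp from Adh1 with 2 genes between. It was scarce, at 3.66, 3.13 and 2.62 CPM in control samples and 2.67, 3.65 and 4.65 CPM with IL-1β. The groups overlapped, and its log2 fold change of 0.22 ± 0.338 (SE) did not pass the threshold. Those values rest on 26 to 39 counts in control samples and 25 to 50 with IL-1β, so counting alone gives a coefficient of variation near 17.3% per sample in control samples.

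Rdh10, a short-chain dehydrogenase that oxidises retinol to retinal, lies on chromosome 1 (16105882 to 16132550, plus strand). It was at 28.6, 27.0 and 29.0 CPM in control samples and at 53.9, 57.4 and 50.7 CPM with IL-1β. Every IL-1β sample was above every control sample and the replicates were close. The mean rose from 28.2 ± 1.04 to 54.0 ± 3.39 CPM (SD, n = 3 each), a log2 fold change of 0.94 ± 0.103 (SE). Dhrs3, which reduces retinal back to retinol, lies on chromosome 4 (144892827 to 144927645, plus strand). Its control samples were at 11.9, 13.1 and 7.25 CPM and its IL-1β samples at 17.96, 16.7 and 27.3 CPM. The groups did not overlap, but control replicate 3 was low and IL-1β replicate 3 was high. The mean rose from 10.8 ± 3.08 to 20.7 ± 5.80 CPM (SD, n = 3 each), a log2 fold change of 0.94 ± 0.203 (SE), close to that of Rdh10. Without IL-1β replicate 3 the log2 fold change was 0.69 and Dhrs3 was no longer past the threshold. The coefficient of variation among its control samples was 28.7%, about that of the IL-1β samples, while counting alone gives 9.33% in control samples.

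The retinal dehydrogenases oxidise retinal to retinoic acid. Aldh1a1, which also oxidises other aldehydes, lies on chromosome 19 (20601982 to 20643462, plus strand). Its level was 126, 105 and 114 CPM in control samples and 21.5, 21.4 and 25.0 CPM with IL-1β. Again no IL-1β sample approached the control range. The mean went from 115.1 ± 10.7 to 22.6 ± 2.05 CPM (SD, n = 3 each), 5.07-fold lower, a log2 fold change of -2.34 ± 0.101 (SE), the most negative of the 7. Aldh1a7, a close paralog of Aldh1a1, lies 49491 bp away on the opposite strand (20692953 to 20727556) with no gene between. It was at 37.8, 36.8 and 37.3 CPM in control samples and at 9.94, 8.45 and 11.7 CPM with IL-1β. The mean went from 37.3 ± 0.488 to 10.04 ± 1.63 CPM (SD, n = 3 each), 3.71-fold lower, a log2 fold change of -1.89 ± 0.138 (SE). Whether the Aldh1a7 protein oxidises retinal was not examined here. The 2 genes encode proteins that are identical at 90.6% of residues and coding sequences identical at 91.9% of bases, so it was checked whether reads could be assigned to the wrong one. Of the 426 windows of 75 nt in the last 500 nt of each transcript, none occurred in a transcript of another gene, for all 9 members. The closest pair of windows between Aldh1a1 and Aldh1a7 differed at 7 bases and the median nearest window at 19. With the counts of both summed, the level was 164, 142 and 151 CPM in control samples and 31.4, 29.9 and 36.7 CPM with IL-1β, a log2 fold change of -2.22 ± 0.093 (SE).

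The retinal dehydrogenases Aldh1a2 and Aldh1a3 were barely detected. Aldh1a2, on chromosome 9 (71215789 to 71296243, plus strand), had 2, 0 and 0 counts in the control samples and 0, 7 and 0 with IL-1β, so that only IL-1β replicate 2 was above the limit of detection. Aldh1a3, on chromosome 7 (66390893 to 66427477, minus strand), had 0, 1 and 0 counts in the control samples and 2, 0 and 1 with IL-1β. Neither was tested, and no fold is given for either.

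Cyp26a1, a cytochrome P450 that hydroxylates retinoic acid for its breakdown and is itself switched on by retinoic acid, lies on chromosome 19 (37697808 to 37701536, plus strand). It was at 5.82, 4.65 and 3.53 CPM in control samples and at 1.07, 1.54 and 0.837 CPM with IL-1β, from 35 to 62 and from 9 to 16 counts. The groups were apart. The mean fell from 4.67 ± 1.15 to 1.15 ± 0.357 CPM (SD, n = 3 each), 4.04-fold lower, a log2 fold change of -2.02 ± 0.391 (SE), the least precise of the 6 past the threshold. On log2(CPM + 1), a scale that compresses low genes, the log2 fold change was -1.39, and it then passed the threshold with limma but not with an unmoderated linear model.

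The order of levels changed with treatment. In control samples the mean CPM fell from Adh1 through Aldh1a1, Aldh1a7, Rdh10, Dhrs3 and Cyp26a1 to Adh4, and only the ranges of Cyp26a1 and Adh4 overlapped among neighbours. With IL-1β the order was Rdh10, Adh1, Aldh1a1, Dhrs3, Aldh1a7, Adh4 and Cyp26a1, and only Aldh1a1 and Dhrs3 overlapped. Rdh10 thus stood below Adh1, Aldh1a1 and Aldh1a7 in every control sample and above all of them in every IL-1β sample.

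The upstream sequence of Cyp26a1 is shown because this gene is a known target of retinoic acid receptors. These receptors bind pairs of a 6-base element in the same orientation. RefSeq promoters (GRCm38.p6) were matched for 7 of the 9 genes, with none for Aldh1a3 or Rdh10. The 250 bases before each start were searched on both strands for 3 spellings of the element. The spelling AGGTCA was present in 14% of all 32851 promoters and, among the members, in Adh4. Neither Adh4 nor any other member searched held the spelling GGTTCA, which was present in 8.85% of all promoters. Of the members, Cyp26a1 held the spelling AGTTCA, present in 11.8% of all promoters. Direct repeats of these spellings with a spacer of 1, 2 or 5 bases were searched as well. A repeat with a spacer of 5 bases was present in 0.0548% of all promoters and, among the 7 members searched, only in Cyp26a1. The 120 bases before its start (chr19:37697688-37697807, plus strand) are given with that repeat in capitals, on the reverse strand.
Cyp26a1: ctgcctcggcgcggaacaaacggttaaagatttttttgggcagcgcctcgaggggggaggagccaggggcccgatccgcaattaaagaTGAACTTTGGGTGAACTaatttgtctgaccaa
Such a match is a description of letters, not of binding.

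The upstream sequences of Aldh1a1 (chr19:20601848-20601967, plus strand) and Aldh1a7 (chr19:20727557-20727676, minus strand) are shown because both genes fell with IL-1β and they are paralogs on opposite strands. Capitals mark the longest run they share, 65 bases long.
Aldh1a1: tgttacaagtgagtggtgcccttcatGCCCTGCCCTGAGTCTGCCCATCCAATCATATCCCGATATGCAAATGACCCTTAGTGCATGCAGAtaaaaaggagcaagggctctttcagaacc
Aldh1a7: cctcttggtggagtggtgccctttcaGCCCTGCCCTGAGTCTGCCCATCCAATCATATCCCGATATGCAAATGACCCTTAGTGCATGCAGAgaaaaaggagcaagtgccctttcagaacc
Over the 250 bases before their starts, 75.9% of aligned bases were identical. The letters ATGCAAAT within the shared run, searched because they were seen in these sequences, occurred in 1.6% of all promoters and, among the members, also in Aldh1a2.

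Beyond these 9 genes, 74 others of the retinoid and alcohol pathways were listed, of which 71 were in the table and 50 were tested. With edgeR, 15 of the 50 passed an adjusted p of 0.05, 4 higher and 11 lower, where 13.4% of all genes tested passed, 6.97% higher and 6.44% lower. The median log2 fold change of the 50 was -0.17. These lists too were drawn up with earlier results of the same samples known, so their adjusted p-values are not independent evidence. With total counts as the only scaling, 2 were higher and 13 lower.

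**Figure D2:**
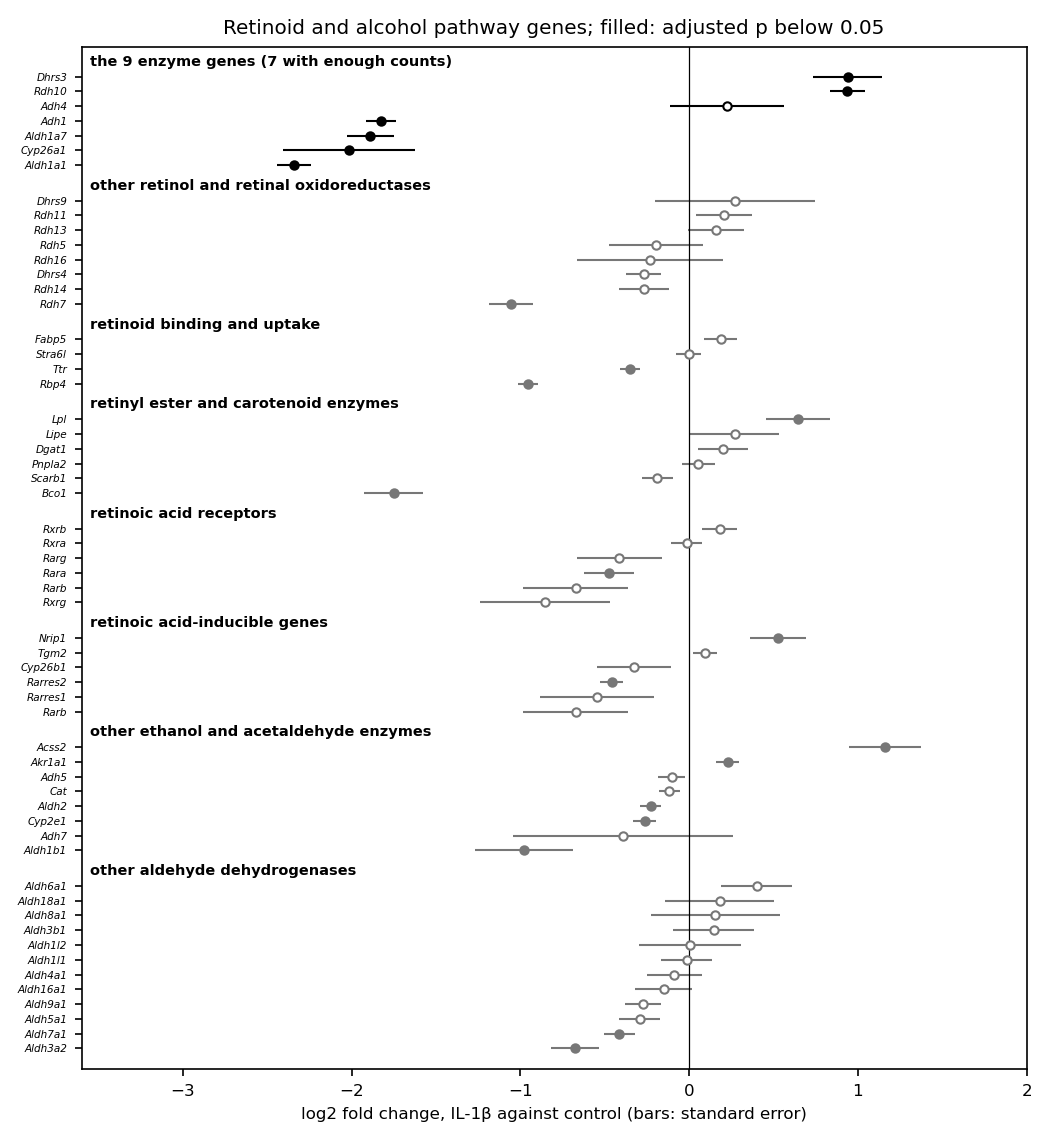
Log2 fold change (IL-1β over control) of the 7 enzyme genes tested and of other genes of the pathways, by list. Each point is a gene with its standard error as a bar (Rarb stands in both of its lists), and filled points passed an adjusted p of 0.05 in edgeR; the 7 enzyme genes run from Aldh1a1 at -2.34 to Rdh10 and Dhrs3 at 0.94, and the other genes include Bco1 at -1.75, Rdh7 at -1.06 and Acss2 at 1.16.

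Among other retinol and retinal oxidoreductases, 8 were tested and 1 fell. This was Rdh7, at 29.97 ± 1.78 CPM in control samples and 14.4 ± 0.749 CPM with IL-1β (log2 fold change -1.06, edgeR adjusted p = 1.22e-06). Among retinoid binding and uptake genes, 5 were tested and 2 fell. Rbp4, the plasma carrier of retinol that hepatocytes secrete, fell from 1074 ± 19.2 to 554 ± 12.3 CPM (log2 fold change -0.95, edgeR adjusted p = 4.07e-12). Ttr, its partner in plasma, fell less (log2 fold change -0.35, edgeR adjusted p = 0.000139). Of 6 genes of retinyl ester and carotenoid handling tested, Bco1, which cleaves β-carotene to retinal, fell from 21.4 ± 2.45 to 6.31 ± 0.913 CPM (log2 fold change -1.75, edgeR adjusted p = 3.92e-08). Lpl, which hydrolyses circulating lipid, was the other one past the threshold (log2 fold change 0.64, edgeR adjusted p = 0.0245), but leaving out control replicate 3, IL-1β replicate 1 or IL-1β replicate 2 gave adjusted p = 0.0853, 0.165 and 0.128.

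Of the 6 genes of retinoic acid receptors and retinoid X receptors, Rara fell (log2 fold change -0.47, edgeR adjusted p = 0.0313). Without control replicate 2, control replicate 3, IL-1β replicate 2 or IL-1β replicate 3 its adjusted p was 0.113, 0.0538, 0.155 and 0.128. Of 7 genes known to be induced by retinoic acid that were tested, Rarres2, which encodes the secreted protein chemerin, fell from 168 to 122 CPM (log2 fold change -0.46, edgeR adjusted p = 2.88e-05). Nrip1, a nuclear receptor cofactor, was higher (log2 fold change 0.53, edgeR adjusted p = 0.0339) with groups that overlapped. Its adjusted p was 0.0697, 0.141, 0.140 and 0.198 without control replicate 1, control replicate 2, IL-1β replicate 1 and IL-1β replicate 2, and 0.0565 with total counts as the only scaling. The list's median log2 fold change was -0.46. The other 5 tested did not pass, among them Tgm2, the most abundant of the list. It was at 434 CPM in control samples and 462 CPM with IL-1β on average (log2 fold change 0.09). Some genes, Rarb, Stra6, Lrat and Crabp2 among them, appear in more than 1 list.

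Of 8 other genes of ethanol and acetaldehyde oxidation tested, 2 rose and 3 fell. Acss2, which activates acetate, rose from 4.98 ± 0.164 to 11.14 ± 0.942 CPM (log2 fold change 1.16, edgeR adjusted p = 0.000313). Cyp2e1, the microsomal ethanol oxidase, fell (log2 fold change -0.26, edgeR adjusted p = 0.00985), and without IL-1β replicate 3 its adjusted p was 0.0625. Aldh2, the mitochondrial enzyme that clears acetaldehyde, fell from 689 ± 38.5 to 589 ± 13.5 CPM (log2 fold change -0.23, edgeR adjusted p = 0.0134). Its adjusted p was 0.121, 0.0645 and 0.0816 without control replicate 2, IL-1β replicate 1 and IL-1β replicate 2. Aldh1b1, a mitochondrial relative of Aldh2, fell (log2 fold change -0.98, edgeR adjusted p = 0.0236), with 0.115, 0.0763 and 0.113 without control replicate 2, IL-1β replicate 2 and IL-1β replicate 3. The fifth gene, Akr1a1, an aldehyde reductase named after its values were seen, was higher (log2 fold change 0.23, edgeR adjusted p = 0.0236). It lost the threshold with upper-quartile or total-count scaling (adjusted p = 0.0517 and 0.0992), and its adjusted p was 0.0871, 0.107, 0.0850 and 0.0843 without control replicate 2, control replicate 3, IL-1β replicate 1 and IL-1β replicate 3. Of 12 other aldehyde dehydrogenases tested, Aldh3a2, which oxidises fatty aldehydes, and Aldh7a1 fell (log2 fold change -0.68 and -0.41, edgeR adjusted p = 0.00129 and 0.00255).

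Markers of cell types were read beside these values. Hepatocyte markers other than Cps1 were abundant. The 8 together summed to 20672 to 20887 CPM in control samples and 17114 to 18013 CPM with IL-1β, and 7 of the 8 tested fell with edgeR. Among them, Hnf4a, a hepatocyte transcription factor, was at 87.7 ± 3.31 CPM in control samples and 42.7 ± 1.06 CPM with IL-1β. It is named although Alb, Apoa1, Ttr and Apob were more abundant. Its log2 fold change of -1.04 was the most negative of the 8, whose median was -0.36, with Alb at -0.20. Most of the hepatocyte sum was Alb, at 16200 CPM in control samples and 14104 CPM with IL-1β on average. Cps1, the marker that did not pass, was scarce, at 2.65 CPM in control samples and 2.06 CPM with IL-1β on average. Stellate cells, which store retinoid, express several of the same enzymes. The sum of their 12 markers was 21.5 to 25.5 CPM in control samples and 22.02 to 28.1 CPM with IL-1β. No call was made among the 2 tested. Most of the stellate sum was Dcn, at 18.4 CPM in control samples and 20.3 CPM with IL-1β on average. Of the 12 markers, 8 had a count of 0 in at least 1 sample, and Lrat was at 0.097 and 0.031 CPM on average. Of the 5 mesothelial markers, 4 were at 0 in every sample and the sum did not exceed 0.192 CPM. Macrophage markers summed to 239 to 272 CPM in control samples and 244 to 274 CPM with IL-1β, with no call among the 7 tested. Most of the macrophage sum was Cd68, at 192 CPM in control samples and 184 CPM with IL-1β on average. The median log2 fold change of the 7 was 0.44. Marco (log2 fold change 0.67) and Cd74 (0.56) were higher in every IL-1β sample than in any control sample, while Cd5l (-0.21) was lower. Endothelial markers summed to 71.9 to 79.9 CPM in control samples and 72.4 to 77.2 CPM with IL-1β, but 3 of the 7 tested passed with edgeR, in both directions, and Clec4g and Kdr are named after their values were seen. Clec4g, a lectin of sinusoidal endothelium, fell from 5.80 ± 1.32 to 0.765 ± 0.497 CPM (log2 fold change -2.87). Its IL-1β values rest on 3, 7 and 14 counts, the first at the limit of detection. An unmoderated linear model on log2(CPM + 1) gave Clec4g a log2 fold change of -1.96 with adjusted p = 0.0507. Kdr, a receptor for vascular growth factor, fell from 4.55 ± 0.694 to 1.62 ± 0.354 CPM (log2 fold change -1.49). Lyve1, a hyaluronan receptor, rose from 18.8 ± 2.85 to 25.8 ± 2.22 CPM (log2 fold change 0.45, edgeR adjusted p = 0.0274), but its adjusted p was 0.0507 with total counts as the only scaling and 0.0965, 0.0807, 0.137 and 0.0851 without control replicate 1, control replicate 3, IL-1β replicate 2 and IL-1β replicate 3. Cholangiocyte markers summed to 316 to 329 CPM in control samples and 236 to 240 CPM with IL-1β, and nearly all of that sum was Spp1 and Sox9, the 2 tested. Spp1, a secreted glycoprotein, fell from 190 ± 1.95 to 82.7 ± 5.17 CPM, while Sox9, a transcription factor, was at 134 ± 5.31 CPM in control samples and 155 ± 5.86 CPM with IL-1β (log2 fold change 0.21, edgeR adjusted p = 0.0519). Krt19, Krt7 and Epcam were near 0. The part of the hepatocyte, stellate, macrophage, endothelial and cholangiocyte marker levels in the enzymes' values was not tested.

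**Figure D3:**
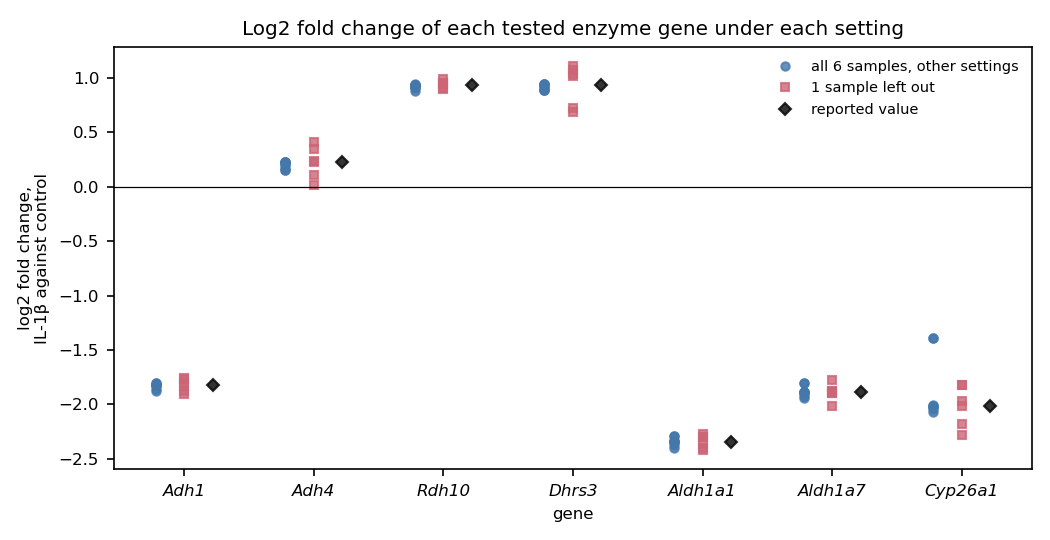
Log2 fold change (IL-1β over control) of each of the 7 enzyme genes tested, under 16 settings; for Cyp26a1, which the filter of at least 10 counts in every sample left out, 15 points are drawn. The reported value, the other settings with all samples and the settings that leave out 1 sample are drawn as different points; Adh4 lies between 0.016 and 0.41 and Dhrs3 spans 0.69 to 1.11.

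The genes with the most similar pattern were ranked by the distance between log2(CPM + 1) profiles over the 6 samples, each centred on its own mean, for the 5 members with a mean of at least 10 CPM. Adh1 and Aldh1a7 were near each other, at a distance of 0.189, where the median distance of a tested gene to either was 2.26. Closest to Adh1 were Igfbp4 (0.186), Aldh1a7 and Mettl7b (0.204), and closest to Aldh1a7 were Adh1, Igfbp4 (0.260) and Gstm3 (0.354). Aldh1a1 was nearest to Sprr1a (0.290), Cldn4 (0.313) and Gprc5a (0.352). Rdh10 was nearest to Zmynd15 (0.137), Mreg (0.138) and Abca1 (0.146), and Dhrs3 to Krt5 (0.320), Macrod1 (0.345) and Snord55 (0.392). The 6 samples fall into only 2 groups, so such distances mostly reflect the difference between groups.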

How the data were processed

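RNA of 6 samples was sequenced by QuantSeq 3′ mRNA-Seq as single reads of 75 nt. The authors aligned reads to GRCm38 (mm10) with Bowtie2 and deposited raw counts per gene, which were used here. The 6 columns of log2 normalised values, and the fold changes and p-values of the authors' own comparison, were not used. The counting tool, its use of strand and its handling of reads that match several genes are not given in the sources used here. Annotated genes on the opposite strand, pseudogenes among them, overlap Aldh1a1, Adh1 and Aldh1a2. The deposited sample text names 2 samples per group but lists 3, and all 6 columns were used.

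The main test was run with edgeR 4.0.16 under R 4.3.3 (filterByExpr, TMM, quasi-likelihood test, Benjamini-Hochberg adjustment over 11657 genes, threshold 0.05). A standard error is the size of the log2 fold change divided by the square root of F. The members and gene lists were chosen with earlier results of these data known. Named genes were all members, up to 4 genes per list with the smallest adjusted p, abundant markers, and the 3 nearest genes per member, with some exceptions. Sequence identity came from translated GENCODE M21 transcripts, and promoters from RefSeq (GRCm38.p6). The test was tried on simulated data. DESeq2 1.42.0 and limma 3.58.1 served as alternatives. The values of 1 gene of the pathway lists are not reported here, though the counts and medians of those lists include it.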

Additional observations from a re-analysis of the deposited data

How the results depend on the processing

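Under 15 other settings no member changed direction. With all samples kept, 60 of 62 member values kept their side of the threshold, and with 1 sample left out 41 of 42 did. The exceptions were Dhrs3 and Cyp26a1 in an unmoderated linear model on log2(CPM + 1) and Dhrs3 without IL-1β replicate 3, and requiring at least 10 counts in every sample left Cyp26a1 out. The unmoderated model called 547 genes and 7 of the 50 other pathway genes, because it shares no variance between genes, against 1131 to 1596 genes and 10 to 15 pathway genes with 1 sample left out. Same-numbered samples did not deviate together (correlations 0.0750, 0.0275 and -0.00497), so the numbers were not taken as pairs; the replicate block called 1671 genes, 6 members and 16 other pathway genes. Depth limits Aldh1a2, Aldh1a3, Adh4 and Cyp26a1 most.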
